A study of Equus caballus with 24 samples.

Results

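Neutrophils, the most abundant phagocytes of blood, are made in bone marrow and store antimicrobial proteins in granules. Azurophil granules form early in their maturation and hold myeloperoxidase and serine proteases. Specific and gelatinase granules form later and hold lactoferrin, lipocalin 2, cathelicidin precursors and metalloproteinases. A membrane oxidase makes superoxide on activation, and the calcium-binding calgranulins fill much of the cytosol. The messages of granule proteins are made mainly by precursors in the marrow.

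A set of 9 genes of this kind was followed in 24 RNA-seq libraries of Debao ponies (DPs), a small Chinese breed, and Mongolian horses (MHs): MPO, LTF, LCN2, ECATH-3, CYBB, CSTA, PADI4, S100A8 and S100A9. The genes were chosen from their measured levels in these same libraries, as genes high in DP long bone, so their breed and tissue differences are given as descriptions, without a test. Of the 9 names, 7 have a row among the 24232 genes with reads, and S100A8 and S100A9 have none under those symbols.

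The study asked which pathways go with the small body of the DP. Pituitary glands and long bone epiphyses, the ends of long bones, came from 6 female DPs and 6 female MHs taken at the slaughterhouse. Each breed gave 3 juveniles, under 3 years old, and 3 adults, and no animal was treated or genetically modified. The 8 groups of 3 libraries are DPPJ, DPPA, MHPJ and MHPA for the pituitary, and DPLBJ, DPLBA, MHLBJ and MHLBA for the long bone, where J is juvenile and A is adult, and a digit after the group names the replicate. The sources used here do not say whether marrow was kept with the bone, which limits what an epiphysis sample stands for. They also do not tie a replicate number to one animal across tissues, so P-values measure the spread between these samples.

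The depth, as reads on genes, was 11433209 to 23573036 in the pituitary and 11616518 to 27007342 in the long bone. Osteoblast markers were present in each long bone library, with summed levels of 3634 to 35542 CPM (reads scaled by library size) against 48.1 to 2243 CPM in the pituitary. Of the 12 pituitary libraries, 5 had anterior pituitary hormone genes near 0, namely MHPJ replicates 1, 2 and 3, DPPA1 and MHPA1. They had 0.127 to 14.6 CPM of 6 anterior pituitary genes in all, against 10938 to 34090 CPM in the other 7. The labels say pituitary and name no part of it, so this does not by itself go against them. Pituitary values below therefore compare libraries as labelled. DPLBJ1, DPLBJ2, MHLBJ2 and MHPJ2 stood apart from their groups in the granule genes. The breed fold changes of the 7 genes in juvenile long bone are given without DPLBJ2 as well. Those of other genes include DPLBJ2 unless stated. Values without DPLBJ1, MHLBJ2 or MHPJ2 stand beside the results that these libraries move most.

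MPO (ENSECAG00000006662) encodes myeloperoxidase, the azurophil enzyme that makes hypochlorous acid. CPM is the share of a library's reads, on its usual scale, after trimmed mean of M-values (TMM) correction of library size. In DPLBJ, MPO stood at 0.576, 1458 and 268 CPM in replicates 1 to 3, and in DPLBA at 195, 202 and 150.0 CPM. In MHLBJ it stood at 0.304, 26.5 and 0.794 CPM, and in MHLBA at 11.8, 0.187 and 0.298 CPM. The adult breeds did not overlap, while DPLBJ1 lay inside the MH range and far below the other 5 DP libraries. The log2 fold change of MPO, DP minus MH, was 6.02 ± 2.54 (SE) in juveniles and 5.38 ± 1.45 in adults. The juvenile value was 3.83 without DPLBJ2, 6.59 without DPLBJ1 and 9.99 without MHLBJ2, and the adult value was 9.58 without MHLBA1. The reads behind these values ran from 4 in MHLBJ1 to 20161 in DPLBJ2. In bulk tissue, fewer cells of a type and less RNA per cell cannot be told apart.

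LTF (ENSECAG00000021499) encodes lactoferrin, the iron-binding protein of specific granules, and had the most reads per base of the 7 genes in the 5 DP libraries with high levels. In DPLBJ it stood at 6.83, 3699.8 and 749 CPM, and in DPLBA at 923, 546 and 615 CPM. In MHLBJ it stood at 0, 39.7 and 1.09 CPM, and in MHLBA at 37.8, 3.29 and 0.298 CPM. No read was counted for LTF in MHLBJ1, where 3 reads, the level a count of 0 still allows, would be 0.228 CPM, a limit that covers counting error only. The mean was 1485 ± 1953 (SD, n = 3) CPM in DPLBJ against 13.6 ± 22.6 CPM in MHLBJ, and 694 ± 201 CPM in DPLBA against 13.8 ± 20.8 CPM in MHLBA. The log2 fold change of LTF was 6.83 ± 2.69 in juveniles, or 4.77 without DPLBJ2, 7.40 without DPLBJ1 and 11.32 without MHLBJ2, and 5.53 ± 1.47 in adults, or 8.51 without MHLBA1. A single MH library at each age thus held most of the MH reads of LTF.

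LCN2 (ENSECAG00000020957) encodes lipocalin 2, which binds bacterial siderophores and is also made by epithelia and other cells. In DPLBJ it stood at 4.12, 1101 and 118 CPM, and in DPLBA at 215, 78.2 and 163 CPM. In MHLBJ it stood at 7.37, 14.1 and 6.11 CPM, and in MHLBA at 23.9, 14.8 and 3.73 CPM. LCN2 was above the floor of 3 reads in each of the 24 libraries, and DPLBJ1 was below 5 of the 6 MH libraries. Its log2 fold change was 5.53 ± 1.72 in juveniles, or 2.71 without DPLBJ2 and 6.10 without DPLBJ1, and 3.34 ± 0.70 in adults, or 4.01 without MHLBA1.

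ECATH-3 (ENSECAG00000013712) encodes an equine cathelicidin, stored as a precursor in granules and cut to an antimicrobial peptide. Its level was 0.659, 140.0 and 30.2 CPM in DPLBJ and 34.2, 21.4 and 22.2 CPM in DPLBA. It was 0.532, 1.78 and 0.993 CPM in MHLBJ and 1.54, 0.747 and 0.596 CPM in MHLBA. The 5 high DP libraries lay above all 6 MH libraries. The log2 fold change of ECATH-3 was 5.72 ± 1.62 in juveniles, or 3.77 without DPLBJ2 and 6.27 without DPLBJ1, and 4.69 ± 0.51 in adults. Horses carry several cathelicidin genes of similar sequence, and ECATH-3 and ECATH-2 have 2 protein-coding genes between them in RefSeq's TB-T2T assembly, so how reads were shared between the 2 genes is uncertain.

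CYBB (ENSECAG00000017917) encodes gp91phox, the catalytic membrane subunit of the phagocyte oxidase, which macrophages also make. Its level was 7.90, 101 and 61.6 CPM in DPLBJ and 60.5, 34.0 and 29.4 CPM in DPLBA. It was 4.56, 9.87 and 2.73 CPM in MHLBJ and 2.57, 3.36 and 2.09 CPM in MHLBA. CYBB had the smallest juvenile fold of the 7 genes, and no library of either tissue was below 2.09 CPM. Its log2 fold change was 3.34 ± 0.93 in juveniles, or 2.58 without DPLBJ2 and 3.96 without MHLBJ2, and 3.88 ± 0.41 in adults.

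CSTA (ENSECAG00000024043) encodes cystatin A, an inhibitor of cysteine proteases that skin also makes. It stood at 0.823, 219 and 17.7 CPM in DPLBJ and at 35.3, 55.1 and 35.9 CPM in DPLBA. In MHLBJ it stood at 1.82, 4.54 and 0.546 CPM, and in MHLBA at 1.63, 1.46 and 1.79 CPM. The log2 fold change of CSTA was 5.15 ± 1.81 in juveniles, or 1.98 without DPLBJ2 and 6.10 without MHLBJ2, and 4.63 ± 0.35 in adults. PADI4 (ENSECAG00000011196) encodes the deiminase that converts histone arginines to citrulline when neutrophils release chromatin. It stood at 1.89, 184 and 55.2 CPM in DPLBJ and at 42.8, 28.5 and 62.5 CPM in DPLBA. In MHLBJ it stood at 1.21, 5.48 and 2.04 CPM, and in MHLBA at 1.71, 0.672 and 0.671 CPM. For both genes the adult breeds did not overlap and DPLBJ1 lay inside the MH range. The log2 fold change of PADI4 was 4.82 ± 1.45 in juveniles, or 3.26 without DPLBJ2 and 5.62 without MHLBJ2, and 5.39 ± 0.56 in adults.

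**Figure D1:**
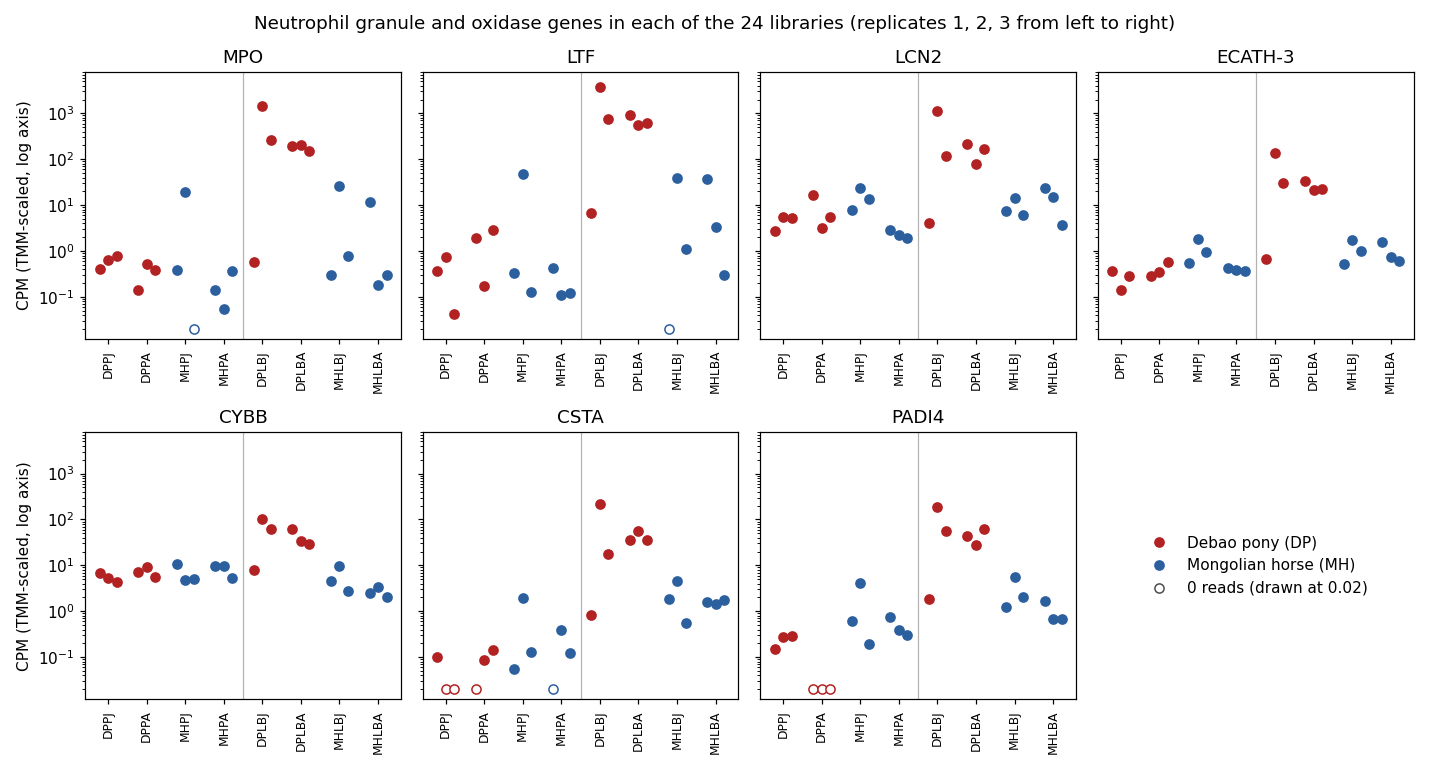
CPM of MPO, LTF, LCN2, ECATH-3, CYBB, CSTA and PADI4 (log axis) in each library of the 8 groups, pituitary left and long bone right of the line, DPs in red and MHs in blue. In the long bone, 5 of the 6 DP libraries lie above all 6 MH libraries for each gene, and DPLBJ1, the leftmost DPLBJ point, lies with the MH libraries.

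In the order of group means, DPLBJ was highest and DPLBA next for each of the 7 genes, and the ranges of these 2 groups overlapped each time. DPLBA did not overlap the group that followed it for any of the 7, which were chosen as high in DP long bone. Between the adult breeds in long bone, DP libraries lay wholly above MH libraries in 7 of 7, beside 16.7% of all 14073 genes. The groups below differed in order from gene to gene. CYBB, for example, had a mean of 8.38 CPM in MHPA, 7.26 CPM in DPPA, 6.76 CPM in MHPJ, 5.72 CPM in MHLBJ, 5.52 CPM in DPPJ and 2.67 CPM in MHLBA, and each neighbouring pair in this order overlapped except DPPJ and MHLBA. By library, DPLBJ2 was highest of the 12 long bone libraries and DPLBJ1 lowest of the 6 DP libraries in 7 of 7 genes. MHLBJ2 was highest of the MH libraries in 6 of 7 and MHLBA1 in the other, LCN2.

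Reads on the 7 genes made up 0.604% of all gene reads in DPLBJ2, 0.121% in DPLBJ3 and 0.0868% to 0.140% in DPLBA. They made up 0.00199% in DPLBJ1 and 0.00976% in MHLBJ2.

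The make-up of this signal differed as well as its size. Divided by gene length, so that genes can be compared with each other, LTF took 36.2% to 44.5% of the 7 genes' reads per base in the 5 high DP libraries, LCN2 15.9% to 30.6% and MPO 9.52% to 16.6%. CYBB took 1.29% to 4.77% there. In DPLBJ1, CYBB took 27.4%, LTF 18.1% and MPO 1.60%. In the 4 MH long bone libraries other than MHLBJ2 and MHLBA1, LTF took 0% to 5.45% and LCN2 41.5% to 69.9%. MHLBJ2, with 25.7% LTF and 17.9% MPO, and MHLBA1, with 27.8% LTF, lay between these and the high DP libraries for LTF. CYBB, which other cells make too, thus took larger shares in DPLBJ1 and those 4 MH libraries than in the 5 high DP libraries. LTF and MPO took smaller ones there. LCN2, also made by other cells, took larger shares in those 4 MH libraries. Its 31.1% in DPLBJ1 was close to the highest of the 5, 30.6%. The remaining genes did not split this way. ECATH-3 took 3.96% to 5.19% in the 5 high DP libraries, 5.05% in DPLBJ1 and 3.58% to 9.32% in those 4 MH libraries. PADI4 took 2.03% to 4.44%, 5.68% and 1.26% to 7.48% in the same order. CSTA took 11.1% in DPLBJ1 and 9.01% to 35.6% in those 4, and its ranges overlapped too. In those 4, ECATH-3 had 7 to 20 reads and PADI4 9 to 41.

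**Figure D2:**
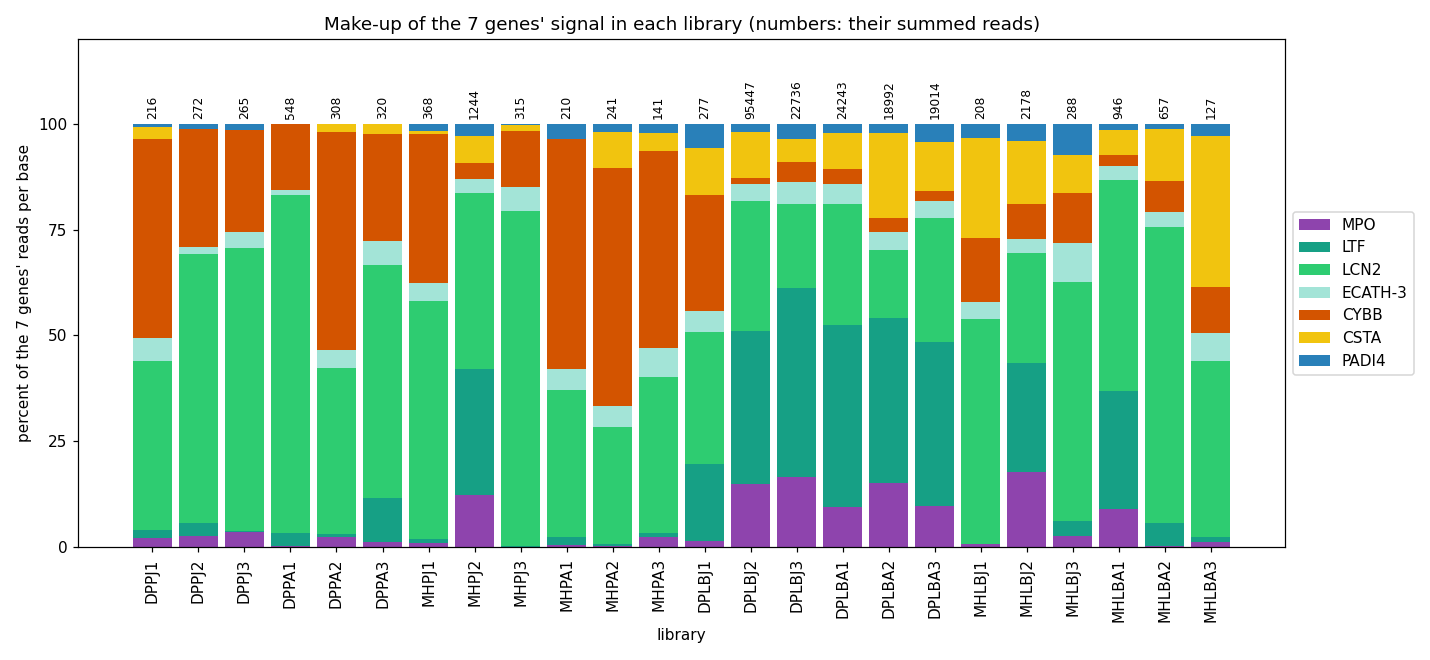
Share of each of the 7 genes in their summed reads per base (percent, stacked to 100) in each of the 24 libraries, with their summed reads above each bar. LTF takes 36.2% to 44.5% in 5 DP long bone libraries and 29.7% in MHPJ2, against 0.182% to 10.2% in the other 11 pituitary libraries.

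On the RPKM scale, which also divides by gene length and so allows levels to be compared between genes, LTF ran from 157 to 1086 RPKM in the 5 high DP libraries, LCN2 from 64.0 to 919 RPKM and MPO from 49.0 to 447 RPKM. CYBB ran from 12 to 38.7 RPKM and PADI4 from 9.27 to 60.9 RPKM.

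The calgranulins S100A8 and S100A9 form a heterodimer, calprotectin, that binds zinc and manganese. No row carries these symbols, but rows without a symbol have the descriptions "protein s100-a8" and "protein s100-a9". They were looked up after the values had been seen, and since 5 rows share such descriptions, their identity is uncertain. The larger row described as S100A9, ENSECAG00000010117, stood at 3.05, 2809 and 492 CPM in DPLBJ and at 532, 262 and 435 CPM in DPLBA. In MHLBJ it stood at 1.67, 38.6 and 1.19 CPM and in MHLBA at 30.0, 2.99 and 1.64 CPM. The larger row described as S100A8, ENSECAG00000009271, stood at 0.823, 1526 and 112 CPM in DPLBJ and at 67.3, 94.3 and 149 CPM in DPLBA, against at most 8.70 CPM in any MH long bone library. Both rows placed the libraries as the 7 genes did, with DPLBJ2 highest and DPLBJ1 among the MH libraries. The other 3 rows had at most 59 reads in any library.

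To see whether the rest of the neutrophil programme moved alongside, a list of 56 other neutrophil pathway genes was tested, of which 39 symbols and 40 rows were found. The names ELANE, AZU1 and CTSG of azurophil proteases and CXCR1, CXCR2, FPR1 and FPR2 of receptors matched no row. A gene was called at an unadjusted P under 0.05 with a fold over 2 by edgeR's quasi-likelihood test. MMP8, MMP9 and MMP25 were known from earlier results of these data and are not independent support. The comparisons below share groups with each other. Leaving out a library also changed the share of all genes called higher. That share is given for such fits in the breed comparisons of long bone and in DP long bone between ages only.

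In the juvenile long bone, 28 of 37 tested pathway genes were higher in DPs and 0 lower, against 8.33% of all 13755 genes higher. Their median log2 fold change was 3.26, beside 0.05 over all genes. None passed a Benjamini-Hochberg adjustment by the same edgeR test, where the lowest adjusted P was 0.143 and 28 had an unadjusted P under 0.05, and DESeq2 called 28. Of all 13755 genes, 0 passed that adjustment. Juvenile DP libraries lay wholly above juvenile MH libraries in 2 of the 37, against 9.6% of all genes. DPLBJ1 lay at or below the highest value of all 6 MH long bone libraries, adults included, in 38 of 40 rows. Without DPLBJ1, 33 of 38 were called, all higher, against 12.8% of all genes higher. Without DPLBJ2, 8 of 37 were called, of which 7 were higher, against 7.28% of all genes. CHI3L1, at a log2 fold change of -1.06 ± 0.21, was then lower. The count of pathway genes called was 7 without MHLBJ1 and 7 without MHLBJ3, all higher, against 5.12% and 4.82% of all genes higher.

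In the adult long bone, where no DP library was low, 30 of 38 pathway genes were higher in DPs, against 10.3% of all 14073 genes, and 1 was lower, against 8.03%. Their median log2 fold change was 2.79, beside -0.03 over all genes. After adjustment 16 remained higher, with a lowest adjusted P of 0.0206 by edgeR's quasi-likelihood test with Benjamini-Hochberg adjustment. The breeds did not overlap, DP above MH, in 31 pathway genes, against 16.7% of all genes. Leaving out any single library kept the pathway count between 29 and 34, beside 8.01% to 11.2% of all genes higher.

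Among azurophil granule genes, 3 of 5 were higher at each age: PRTN3, encoding proteinase 3, BPI, which permeabilises bacteria, and SERPINB1, an inhibitor of neutrophil proteases. PRTN3 stood at 43.8, 31.9 and 23.1 CPM in DPLBA against 1.97, 0 and 0 CPM in MHLBA, and at 0.165, 315 and 48.3 CPM in DPLBJ against 0, 2.34 and 0.149 CPM in MHLBJ. Its log2 fold change was 5.67 ± 1.44 in adults and 7.17 ± 2.34 in juveniles. SERPINB1 had values of 4.43 ± 0.68 and 5.10 ± 1.47, and BPI of 4.91 ± 1.24 and 6.37 ± 2.35. Without DPLBJ2 the juvenile values were 4.78 for PRTN3 and 4.39 for BPI, neither called, and 4.01 for SERPINB1, still called. CD63 and CTSC, which most cells express, were not called, with juvenile log2 fold changes of 0.67 ± 0.35 and -0.16 ± 0.25.

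Specific and gelatinase granule genes were higher in 10 of 13 cases in juveniles and in 9 of 13 in adults. ECATH-2, another cathelicidin, had the largest juvenile log2 fold change, 7.25 ± 2.82, followed by TCN1, a vitamin B12 binder, at 6.67 ± 2.10 and OLFM4 at 5.59 ± 2.10. In adults, CRISP3 was at least 30.3-fold higher, since MHLBA held no more than 3 reads per library, and ECATH-2 had 5.50 ± 1.60. LYZ, lysozyme, had 4.91 ± 1.67 and 4.56 ± 0.86. LYZ has 2 rows, and the other one held almost no reads. Without DPLBJ2 the juvenile values were 4.04 for ECATH-2, 5.50 for TCN1, 5.13 for OLFM4 and 4.08 for LYZ. Of these, TCN1 alone was still called.

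CHI3L1, a chitinase-like protein that cartilage and macrophages make as well, was the single pathway gene lower in adult DPs. It stood at 24.4, 28.2 and 44.9 CPM in DPLBA against 116, 50.3 and 79.0 CPM in MHLBA, and its log2 fold change fell by 1.42 ± 0.40. The adjusted P of CHI3L1 was 0.0951 by edgeR's quasi-likelihood test.

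Oxidase partners of CYBB were higher in DPs at both ages. They include CYBA, the other membrane subunit, the cytosolic proteins NCF1 and NCF4, the GTPase RAC2 and the proton channel HVCN1. NCF1, NCF4 and RAC2 had adult log2 fold changes of 3.30 ± 0.56, 2.75 ± 0.44 and 2.61 ± 0.61, and juvenile ones of 4.39 ± 1.35, 3.55 ± 1.23 and 3.11 ± 1.13. Without DPLBJ2 the juvenile ones were 3.01, 1.81 and 1.61, and NCF1 alone of these was still called. CYBA was then at 0.33 and not called. NCF1 stood at 17.7, 8.84 and 16.6 CPM in DPLBA against 2.22, 1.16 and 0.746 CPM in MHLBA. The adjusted P of NCF1 in adults was 0.0367 by edgeR's quasi-likelihood test. HVCN1, like PADI2 below, differed from most genes of the list in the library DPLBJ1, where it lay above the MH libraries. For HVCN1 this library, at 22.7 CPM, was the highest juvenile value, beside 19.0 and 16.5 CPM in DPLBJ2 and DPLBJ3 and 3.57 to 8.56 CPM in MHLBJ. HVCN1 had a juvenile log2 fold change of 1.87 ± 0.43 and the lowest adjusted P of the list there, 0.143 by edgeR.

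S100A12, the calgranulin next to S100A8 and S100A9 in RefSeq's TB-T2T assembly, rose by 6.75 ± 2.26 in juveniles and by 4.91 ± 1.00 in adults on the log2 scale. The juvenile value of S100A12 was 4.0 without DPLBJ2 and not called. PADI2, a deiminase of many tissues, had 1.56 ± 0.66 and 2.20 ± 0.70, but placed the juvenile libraries otherwise than the 7 genes did. It stood at 21.9, 4.05 and 30.7 CPM in DPLBJ against 6.0, 5.01 and 8.04 CPM in MHLBJ, so DPLBJ2 was below each MHLBJ library. Over the long bone libraries, its correlation with the mean log2 CPM of the 7 genes was 0.305, and -0.475 with breed means removed. Receptor and lipid mediator genes were higher in 6 of 9 cases in juveniles and in 9 of 10 in adults. CSF3R, the receptor for the growth factor of granulocytes, stood at 26.1, 22.3 and 38.0 CPM in DPLBA against 2.57, 1.87 and 3.06 CPM in MHLBA, and had a log2 fold change of 3.45 ± 0.39. ALOX5AP, which helps make leukotrienes, had 4.35 ± 0.78, PTAFR, the receptor for platelet-activating factor, 3.31 ± 0.93 and LTB4R, a leukotriene receptor, 3.22 ± 0.86. In juveniles ALOX5AP was highest of these roles, at 5.08 ± 1.41, before CSF3R at 4.78 ± 1.40, TREM1, which amplifies inflammatory signals, at 4.29 ± 1.46 and ALOX5 at 3.26 ± 1.17. Without DPLBJ2, ALOX5AP at 3.43 and CSF3R at 2.47 were still called, and TREM1 at 2.05 and ALOX5 at 1.53 were not. Of the transcription factors, CEBPE, which drives specific granule genes, was called at both ages, at 5.41 ± 1.87 and 3.64 ± 0.44, and GFI1 at neither. The juvenile value of CEBPE was 2.25 without DPLBJ2 and not called.

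**Figure D3:**
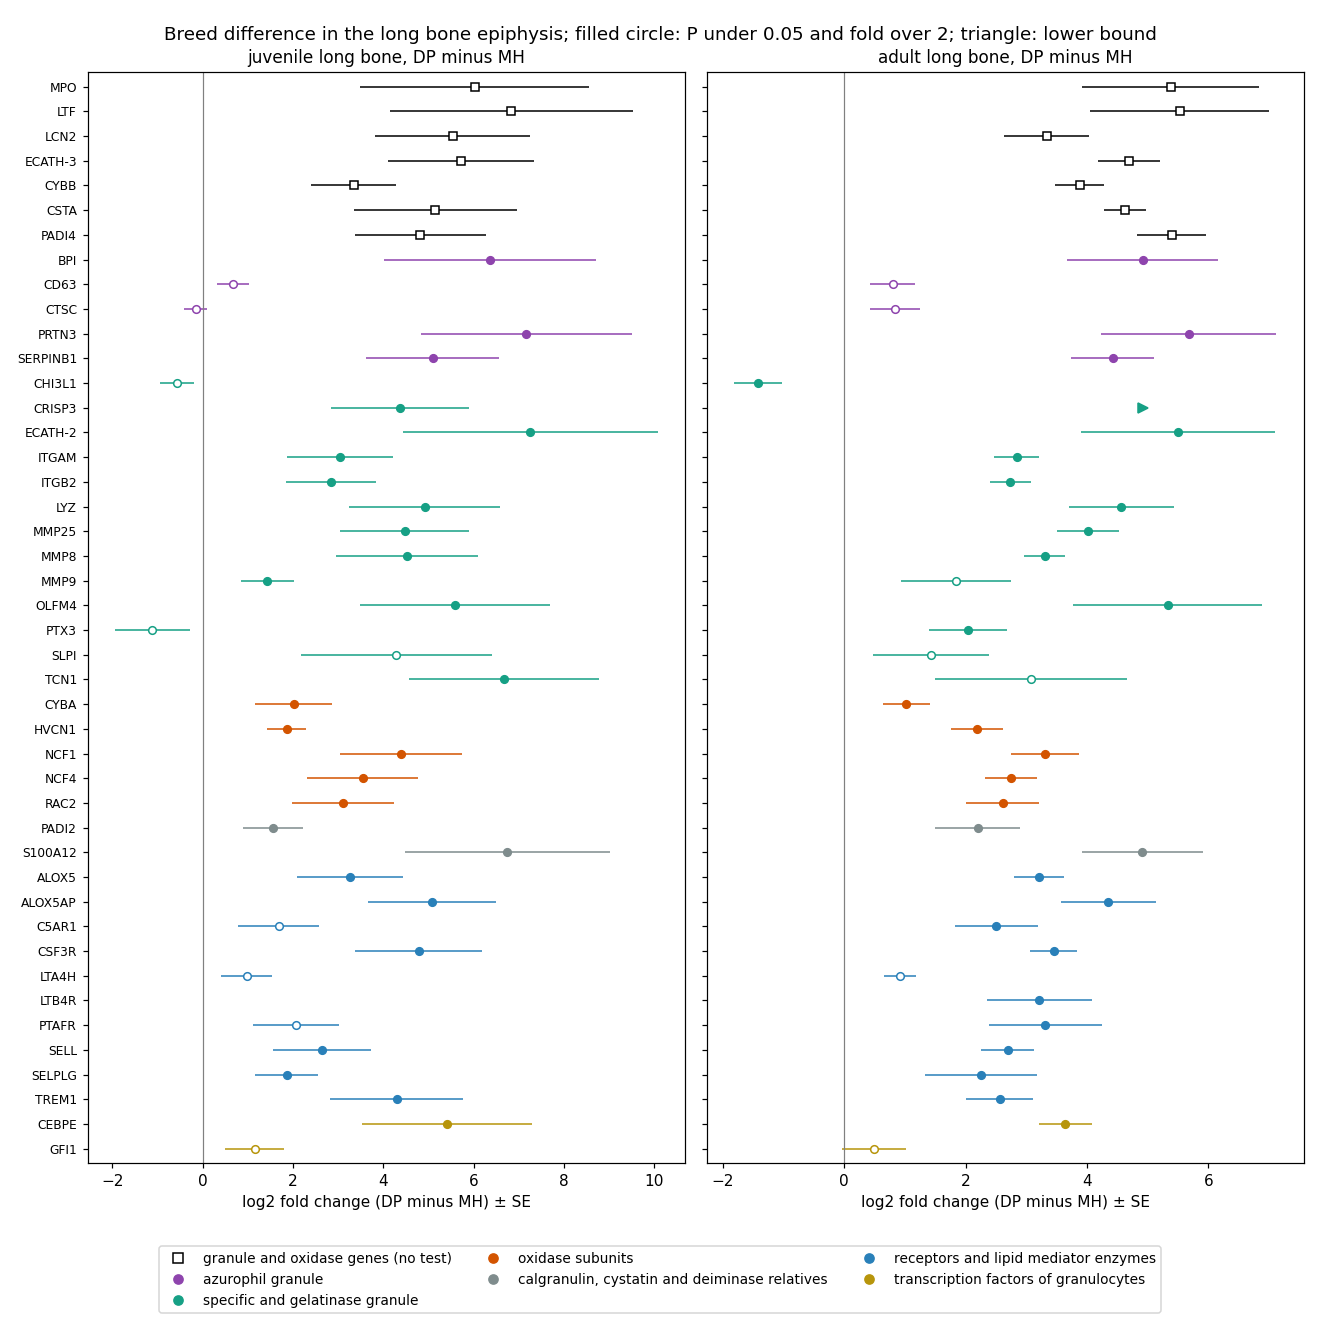
Log2 fold change, DP minus MH, ± SE of the 7 genes (open squares, not tested) and of tested pathway genes by role in the juvenile (left) and adult (right) long bone. Nearly all lie right of 0, most juvenile errors are wider than the adult ones, and CHI3L1 is the filled point left of 0 in adults. The triangle is a lower bound for CRISP3.

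Some marker lists of other cells moved with these genes. A list of 4 eosinophil and mast cell genes summed to 572 and 364 CPM in DPLBJ2 and DPLBJ3 and to 221 to 404 CPM in DPLBA, against 1.15 CPM in DPLBJ1 and 0.228 to 16.2 CPM in the MH long bone. Nearly all of it was EPX, eosinophil peroxidase, at 398, 212 and 313 CPM in DPLBA. A list of 3 megakaryocyte genes summed to 29.5 to 223 CPM in the 5 high DP libraries against 7.10 to 10.6 CPM in MHs. Genes of dividing cells summed to 94.8 to 971 CPM in those 5 libraries and to 8.05 to 55.2 CPM in MHs, but also to 73.1 CPM in DPLBJ1. Their part in the breed differences was not tested.

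Erythroid genes followed another pattern. The sum of 8 was 2027 and 2038 CPM in DPLBJ2 and DPLBJ3, while DPLBA had 5.34, 67.9 and 9.80 CPM. ALAS2, the first enzyme of haem synthesis in red cells, had no reads in DPLBA1 and DPLBA3. The 7 granule and oxidase genes summed to 1506 and 1078 CPM in those 2 libraries, beside 1299 CPM in DPLBJ3, while their erythroid sums lay below or within the MH range of 6.30 to 14.5 CPM.

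Chondrocyte genes were high in most of the same libraries, at 5801 and 18155 CPM in DPLBJ2 and DPLBJ3 and at 10324, 631 and 24222 CPM in DPLBA, against 13.1 to 1687 CPM in MHs and 55.2 CPM in DPLBJ1. MHLBA1, the MH library with the highest LCN2, held the 1687 CPM. Monocyte and macrophage genes summed to 1178 to 2042 CPM in the 5 high DP libraries, 392 CPM in DPLBJ1 and 294 to 1077 CPM in MHs. T and NK cell genes overlapped, at 42.3 to 138 CPM in DPs and 59.2 to 157 CPM in MHs, and adipocyte genes stood at 1693 to 6445 CPM in DPs and at 1017 to 8475 CPM in MHs. The cell make-up of the samples and the breed cannot be told apart in this design, and the part of each cell type was not tested.

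**Figure D4:**
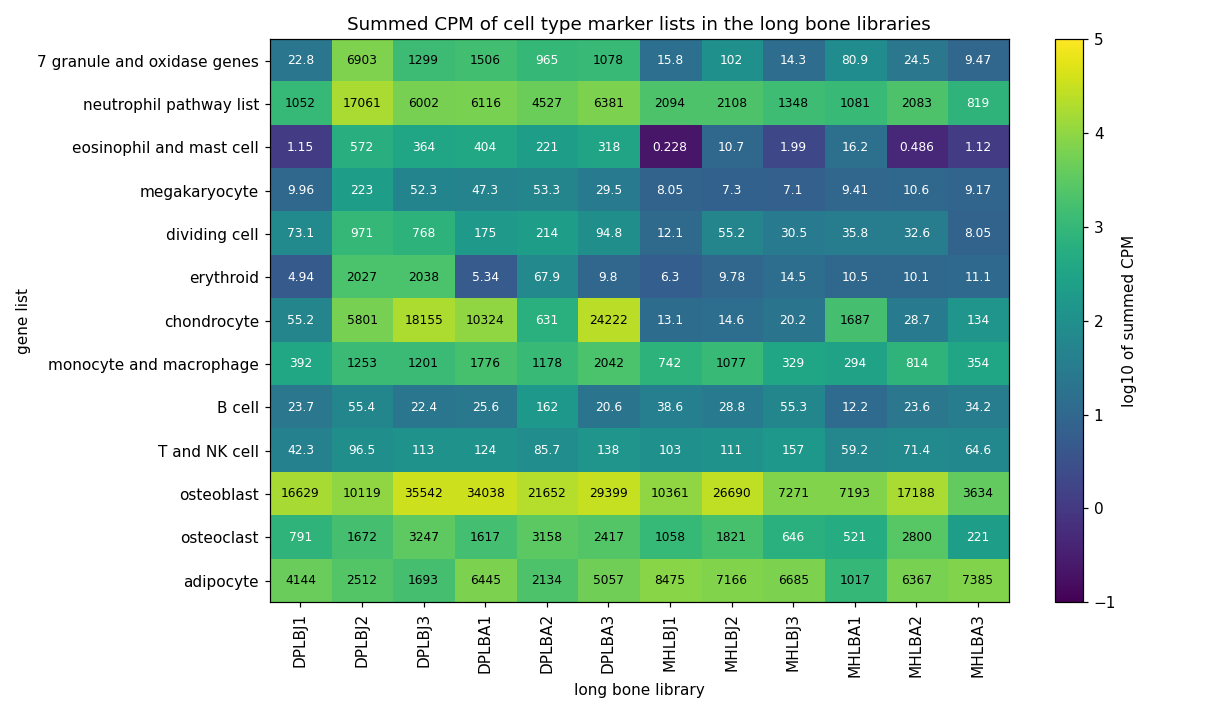
Summed CPM (printed in each cell, colour on a log10 scale) of the 7 genes, the neutrophil pathway list and marker lists of other cell types in the 12 long bone libraries. The eosinophil and mast cell row is high in the 5 libraries that are high for the 7 genes, and the erythroid row is at 2027 and 2038 CPM in DPLBJ2 and DPLBJ3 and at most 67.9 CPM elsewhere.

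Over the 12 long bone libraries, the mean log2 CPM of the 7 genes was correlated with each of 12993 genes, as a description. The libraries fall into 5 high and 7 low ones and share breed, so no P is given, and 230 genes had r above 0.9. The 10 symbol genes most alike were PRTN3 (r = 0.993), ITGAM (0.990), S100A12 (0.988), SERPINB1 (0.987), SERPINB10 (0.987), HK3 (0.987), ECATH-2 (0.986), RETN (0.985), LYZ (0.983) and NCF1 (0.981). With breed means removed their r ran from 0.957 to 0.985. Of these 10, 6 belong to the pathway list by granule or calgranulin role and 1 by oxidase role. MMP8 ranked 99, MMP9, which osteoclasts also make, ranked 948 with r = 0.751, and CHI3L1 ranked 9359 with r = -0.381.

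For each gene alone, the most alike was PRTN3 for MPO (r = 0.993), CLEC5A for LTF (0.984), TREM1 for LCN2 (0.985), ATP2A3 for ECATH-3 (0.992), NLRP3 for CYBB (0.983), RETN for CSTA (0.976) and CRISP3 for PADI4 (0.990). Among the 21 pairs of the 7 genes, r ran from 0.869 for LTF and CSTA to 0.979 for ECATH-3 and PADI4. The mean log2 CPM of the marker lists had r of 0.968 for megakaryocyte, 0.967 for eosinophil and mast cell, 0.90 for dividing cell, 0.799 for chondrocyte, 0.773 for monocyte and macrophage, 0.731 for B cell and 0.625 for erythroid genes. It was 0.488 for osteoclast, 0.427 for T and NK cell, 0.418 for osteoblast and -0.602 for adipocyte genes.

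Age was compared within each breed. In DP long bone, 0 of 38 pathway genes were called between juveniles and adults, against 1.58% of all genes higher and 1.56% lower in juveniles. One pathway gene had an unadjusted P under 0.05 in edgeR, and DESeq2 called 0. The 7 genes had positive log2 differences, juvenile minus adult, from 0.51 ± 0.77 for CYBB to 1.72 ± 1.60 for MPO, with errors near or above most of the differences. These values rested on 2 libraries of opposite kind. Without DPLBJ1, 22 of 38 pathway genes were called, all higher in juveniles, against 6.32% of all 14280 genes higher. The median of the 7 genes was then 1.74. Without DPLBJ2, 0 were called, against 1.9% of all genes higher, and that median was -0.69, with CSTA at -2.12.

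In MH long bone, 1 of 30 pathway genes, PTX3, was higher in juveniles, against 0.763% of all genes. PTX3 encodes a pentraxin that stromal cells also make, and stood at 950.4, 543 and 437 CPM in MHLBJ against 128, 289 and 144 CPM in MHLBA. Its log2 difference was 1.78 ± 0.43 with an adjusted P of 0.998 by edgeR's quasi-likelihood test with Benjamini-Hochberg adjustment. The 7 genes ranged from -0.66 ± 0.67 for LCN2 to 1.49 ± 0.73 for PADI4. The test of whether the breed difference itself changed with age, over all 12 long bone libraries, passed the adjustment in 0 of 14735 genes and 0 of 38 pathway genes, with 660 and 1 at an unadjusted P under 0.05 in edgeR. The 1 was PTX3, with an interaction of -3.18 ± 1.16 on the log2 scale. No other tool was run on the interaction.

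**Figure D5:**
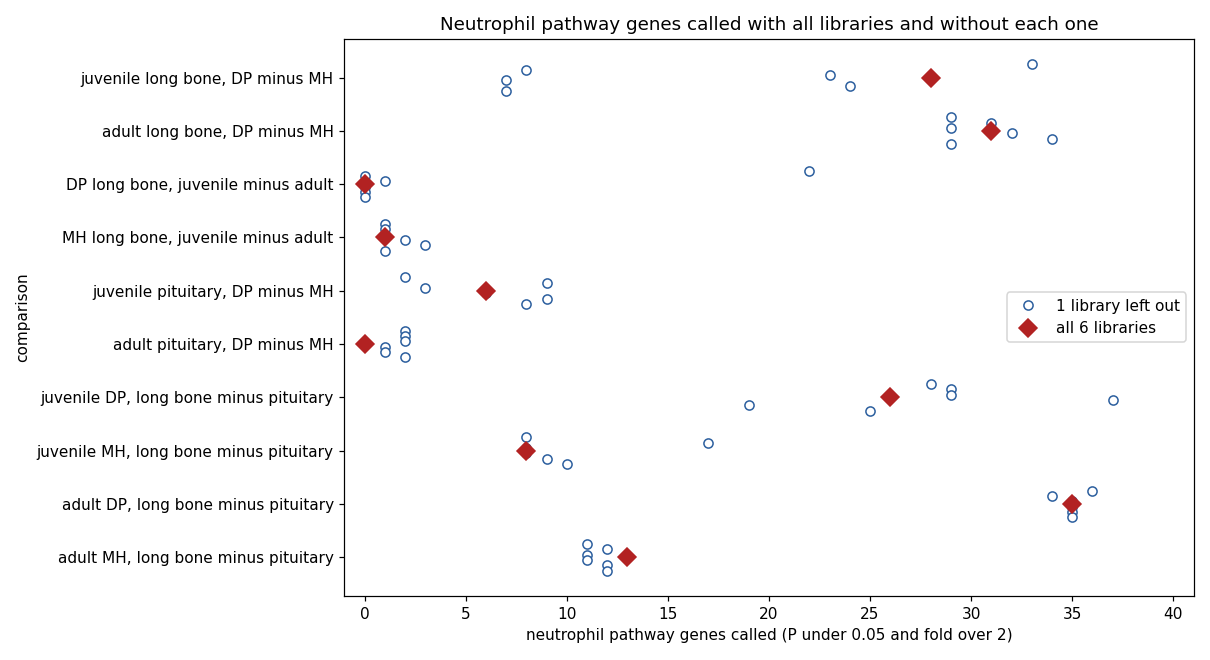
Neutrophil pathway genes called in each of the 10 comparisons, with all 6 libraries (diamonds) and with each library left out (circles). The adult long bone count stays between 29 and 34, while the juvenile long bone count runs from 7 to 33 and the DP juvenile against adult count from 0 to 22.

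In the pituitary the 7 genes were low in 11 of 12 libraries. LTF stood at 0.0417 to 2.92 CPM there, MPO at 0 to 0.792 CPM and ECATH-3 at 0.139 to 0.950 CPM, while LCN2 stood at 1.93 to 16.6 CPM and CYBB at 4.25 to 10.5 CPM. CSTA had no reads in 4 pituitary libraries and PADI4 in 3, those of DPPA. MHPJ2 was the exception, with 47.9 CPM of LTF, 19.1 of MPO, 23.5 of LCN2 and 4.24 of PADI4, and was highest of the 12 in 6 of 7 genes and 22 of 40 pathway rows. CYBB was not among them, at 4.82 CPM. MHPJ2 also held 14.4 CPM of EPX, 160.4 CPM of erythroid genes, 269 CPM of keratinised epithelium genes and 229 CPM of dividing cell genes, of which 204 CPM were AURKB. It is one of the 5 libraries with hormone genes near 0, and the part of these other cells in its granule messages was not tested.

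Between breeds in the juvenile pituitary, 1 of 27 pathway genes was higher in DPs, against 7.6% of all genes, and 5 were lower, against 12.7%. The higher one was CTSC, cathepsin C, which activates granule proteases and is made in most tissues. It stood at 79.3, 68.8 and 66.7 CPM in DPPJ against 25.5, 20.8 and 12.5 CPM in MHPJ, with a log2 fold change of 1.80 ± 0.29 and an adjusted P of 0.0243 by edgeR's quasi-likelihood test. PTX3, CHI3L1, LYZ, PADI2 and ITGB2 were lower, with log2 fold changes from -4.99 ± 1.42 for PTX3 to -1.61 ± 0.49 for ITGB2. MHPJ2 was the highest library for PTX3, at 18.7 CPM beside 1.70 and 1.08, for CHI3L1, at 87.3 CPM beside 11 and 4.94, and for LYZ, at 41.9 CPM beside 3.78 and 2.66. Without MHPJ2, 4 of 27 were higher, namely CD63, CTSC, SERPINB1 and CYBA, and 5 were lower. PTX3 was then at -2.56 ± 0.70, CHI3L1 at -2.70 ± 0.80 and PADI2 at -3.78 ± 0.78, PTAFR and SELPLG joined them, and LYZ, at -1.35 ± 0.63, and ITGB2, at -0.97 ± 0.29, were no longer called. Since 3 of 3 MHPJ libraries had hormone genes near 0, breed and that difference cannot be told apart here. Of the 7 genes, 4 passed the filter on low counts, with log2 fold changes of -1.80 ± 0.52 for LCN2 and -2.11 ± 0.67 for ECATH-3. MPO was at -3.49 ± 1.98, and at 1.59 without MHPJ2. In the adult pituitary 0 of 25 pathway genes were called, against 1.75% of all genes higher and 1.18% lower, 1 had an unadjusted P under 0.05 in edgeR, and DESeq2 called 0. Without DPPA1 and MHPA1, 1 of 27 was called, lower in DPs. Of the 7 genes, LCN2 and CYBB passed the filter there, with log2 fold changes of 1.87 ± 0.67 and -0.19 ± 0.37, and LCN2 was at 0.90 without DPPA1.

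Between tissues, adult DPs had 35 of 38 pathway genes higher in long bone than in pituitary, against 19.5% of all genes, and the tissues did not overlap in 36, against 26.5%. In the 7 genes the log2 difference, long bone minus pituitary, was 9.0 ± 0.48 for MPO, 8.70 ± 0.99 for LTF, 6.0 ± 0.44 for ECATH-3, 4.17 ± 0.71 for LCN2 and 2.51 ± 0.37 for CYBB. CSTA was at least 304-fold and PADI4 at least 322-fold higher, against a floor of 3 reads per library. Of the pathway genes, ECATH-2 was at least 824-fold and PRTN3 at least 237-fold higher. Among those with reads in both tissues, MMP9 had 12.58 ± 1.1, PTX3 9.98 ± 1.33, S100A12 9.78 ± 0.92, OLFM4 9.49 ± 1.09, BPI 9.10 ± 0.82 and LYZ 8.10 ± 0.66 on the log2 scale. LTA4H, PTAFR and PADI2 were not called. Without DPPA1, whose hormone genes were near 0, 36 of 38 were called.

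In juvenile DPs, 26 of 30 were higher in long bone, against 18.5% of all genes, and 16 did not overlap, against 21.0%. Of the 7 genes, LTF had the largest log2 difference, 11.98 ± 2.48, and CYBB the smallest, 3.42 ± 0.84. CSTA was at least 567-fold higher, or at least 66.2-fold without DPLBJ2, and LTF and CYBB were then at 10.01 and 2.72. The errors were wider than in adults, as DPLBJ1 to DPLBJ3 span a wide range. Without DPLBJ1, 37 of 39 pathway genes were called, and without DPLBJ2, 19 of 31.

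MHs gave another picture. In adult MHs 10 of 31 pathway genes were higher in long bone, against 12.8% of all genes, and 3 lower, against 14.3%. The higher genes were led by PTX3, MMP9, SLPI and CHI3L1, which stromal, osteoclast, epithelial or cartilage cells are known to make. They also included CTSC, the calgranulin S100A12, the oxidase genes RAC2 and CYBA, and the transcription factor GFI1. The lower genes were PTAFR, ALOX5AP and ITGAM, the last the integrin of neutrophils and macrophages. Without MHPA1, whose hormone genes were near 0, 9 were higher and 2 lower. CYBB was lower in MH long bone, at a log2 difference of -1.59 ± 0.44, while LCN2 was at 2.65 ± 0.71 and CSTA at 3.21 ± 0.94. MPO, LTF and ECATH-3 did not pass the filter on low counts. In juvenile MHs, whose 3 pituitary libraries all had hormone genes near 0, 6 of 30 were higher, against 12.5%, and 2 lower, against 20.2%. The 7 genes lay between -0.72 ± 0.52 for LCN2 and 1.71 ± 1.36 for CSTA, with LTF at -0.24 ± 2.43. The LTF value was 5.87 without MHPJ2 and -4.86 without MHLBJ2, and that of MPO, 0.51 ± 2.20, was 5.51 and -3.57. Without MHPJ2, 17 pathway genes were called, 12 higher and 5 lower.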

How the data were processed

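The authors sequenced rRNA-depleted directional libraries, removed reads under 30 bp and used the EquCab 3.0 assembly. The processing notes name bcl2fastq, TopHat2 and edgeR, the methods name Salmon, and the instrument and read layout differ between labels and methods. The counter and annotation release are not given in the sources used here. The authors deposited whole-number counts of reads per gene, without normalization, and RPKM values, scaled by gene length and library size. In DPLBA2, 216 of 9210 genes had a deposited RPKM differing by over 2% from reads divided by length and library size, but 0 of the 7 genes followed did.

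Counts were tested for each pair of groups with edgeR 4.0.16 (R 4.3.3, glmQLFit and glmQLFTest, two-sided) after filterByExpr with a minimum count of 10 and TMM scaling, with DESeq2 1.42.0 as an alternative. A call was an unadjusted P under 0.05 with a fold over 2, and Benjamini-Hochberg adjustment ran over all genes tested. Log2 CPM used a prior count of 2. A floor of 3 reads per library set lower bounds. The script was tested on simulated data. Pathway genes named are, per role and comparison, up to 4 called genes with the largest change, plus the 10 genes most alike. CHI3L1, CD63, CTSC, CYBA, HVCN1, MMP8, MMP9, GFI1, LTA4H, PTAFR, PADI2, SELPLG, SERPINB1 and ITGAM were also named where this rule does not name them, after their values were seen. The genes followed and the lists were chosen with earlier results of these data known. Columns that matched no sample numbered 0.

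Same-numbered DPPA and MHPA libraries deviated together (correlations of 0.621, 0.486 and 0.330). The fits reported above did not pair them, and a fit with the replicate number as a block was run as an alternative. The labels do not say what the number stands for, and number 1 is the hormone-poor library in both groups. No sequence or coordinate is given, as the gene table used for names is of another assembly (TB-T2T). One gene of the pathway list is counted but not reported by name here.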

Additional observations from a re-analysis of the deposited data

How the results depend on the processing

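Over the alternatives run, named pathway genes stayed on their side of the threshold in 1154 cases and lost the call, in the same direction, in 144. The untested fold changes of the 7 genes moved by less than the spread between replicates in 687 cases and by more in 23. That spread was wide where libraries of a group lay far apart, as in DPLBJ, so large changes could count among the 687. The pathway counts that follow stand without the share over all genes in the same fit, which also moved between settings. In the juvenile long bone, where 28 pathway genes were called, the replicate block left 17, an adjusted P under 0.05 left 0, and leaving out 1 library gave 7 to 33. In the adult long bone (31 called) the adjusted P left 16 and leaving out 1 library gave 29 to 34. In DP long bone between ages (0 called) no low-count filter gave 1 and leaving out 1 library gave 0 to 22. In MH long bone between ages (1 called) no filter gave 2, fitting all libraries together 0, the adjusted P 0, and leaving out 1 library 1 to 3. In the juvenile pituitary (6 called) the adjusted P left 1 and leaving out 1 library gave 2 to 9, with 2 without DPPJ1 and 3 without DPPJ3. In the adult pituitary (0 called) no normalization factors, no filter and a joint fit gave 1 each, leaving out 1 library gave 1 to 2, and leaving out DPPA1 and MHPA1, chosen after seeing the data, gave 1. Leaving out 1 library gave 19 to 37 in juvenile DPs between tissues (26 called), 8 to 17 in juvenile MHs (8 called), 34 to 36 in adult DPs (35 called) and 11 to 12 in adult MHs (13 called), where the adjusted P left 7. Same-numbered samples deviated together in the adult pituitary alone, where the fit with the replicate block called 0 as well. Elsewhere the block gave 32 in the adult long bone, 20 in juvenile DPs between tissues and 10 in juvenile MHs, and in no comparison were all 3 correlations above 0.1. DESeq2 gave 28, 32, 0, 1, 7 and 0 in the 6 comparisons within a tissue. Of the 10 genes most alike, 2 remained with Spearman's rho, 8 with breed means removed, 5 over all 24 libraries and 7 on log2(RPKM + 1). Depth limited MPO, LTF, CSTA and PADI4 in the pituitary, where many libraries held few reads of them.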
